A study of Mus musculus with 7 samples.

Results

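Gas5, Snhg1, Snhg3, Snhg5, Snhg6, Snhg8 and Snhg12 are long noncoding RNAs whose introns encode small nucleolar RNAs (snoRNAs). They were chosen by name, and each transcript was taken by its gene symbol. 5 of the 7 symbols were listed in all 6 CIRS-seq libraries, and Snhg6 and Snhg8 were not among the listed symbols and were not analysed here. The 5 hosts had 38 of the 26827 transcripts of the series: 25 of Gas5, 2 of Snhg1, 5 of Snhg3, 1 of Snhg5 and 5 of Snhg12.

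CIRS-seq reads RNA structure from the positions at which reverse transcriptase (RT) stops. Lysates of E14 mouse embryonic stem cells (ESCs, strain 129/Ola) were freed of proteins with Proteinase K and then probed. Dimethyl sulfate (DMS), which methylates mainly unpaired A and C, was used at 50 to 200 mM and the aliquots were pooled, and the carbodiimide CMCT, which modifies unpaired U and less often G, was used at 10 to 50 mM and pooled likewise. The not treated control (NT) pooled the 0 mM aliquots of both buffers, and each of the 3 groups had 2 replicates. A single ribosomal RNA-depleted RNA-seq library came from the same line. The CIRS-seq libraries listed 181944556 to 338201940 RT stops over all transcripts, and with each genomic position taken once per gene only 6.66% to 9.86% of them lay at positions whose next 25 bases occur once in the genome. For the hosts this share was 95.6% in Gas5, 89.9% in Snhg1, 70.7% in Snhg3, 87.9% in Snhg5 and 96.2% in Snhg12. A position whose next 25 bases cross an exon junction or pass the transcript end in every isoform was not searched and counts as not found once. Such positions were 12.7% of those of Snhg3, 12.6% of Snhg5, 3.48% of Snhg12, 1.99% of Gas5 and 0.848% of Snhg1. Each library listed more RT stops than the reads that the paper reports per treatment, also with each position taken once per gene. The listed stops, which also set the depth used for scaling, are therefore not all separate reads. The line carried its markers in RNA-seq, where all 9 ESC genes examined had RPKM values (over alignments assigned to 1 gene) of 5.34 to 316, and the 6 fibroblast genes were between 0.0111 and 0.598. The 7 germ layer genes lay between 0.0970 and 4.44.

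Most snoRNAs of vertebrates are cut from introns after splicing and trimmed to a mature end by exonucleases, which halt at the proteins bound to the snoRNA. Box C/D snoRNAs guide 2′-O-methylation of other RNAs, with fibrillarin as the enzyme, and box H/ACA snoRNAs guide pseudouridylation, with dyskerin as the enzyme. The spliced host RNA encodes no long protein, is often turned over by nonsense-mediated decay, and begins in many hosts with a run of pyrimidines typical of translation-related genes. An isoform that retains an intron still holds the snoRNA as part of its sequence.

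Gas5 lies at chr1:162964553-162968670 on the plus strand of mm9 and holds 9 annotated snoRNAs, all of the box C/D kind by name. Snhg1 lies at chr19:8797986-8800932 on the plus strand and holds 8 such genes. Snhg12 lies at chr4:131864593-131866939 on the plus strand and holds 4, of which Snora16a, Snora44 and Snora61 are of the H/ACA kind and Snord99 is C/D. Snhg3 lies at chr4:131903929-131909601 on the minus strand and holds Snora73a and Snora73b, and Snhg5 lies at chr9:88415894-88417721 on the minus strand and holds a pair of SNORD50 genes. Of these 25 snoRNAs, 24 were also listed as transcripts of their own, and SNORD78 was not.

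The 30 bases around the strongest NT stop at a snoRNA 5′ end are shown for 8 snoRNAs, because the most stops per base of the hosts lay there in every group. The sequence is that of the RNA strand in mm9, and the capital marks the base at which the stop was recorded.
SNORD24 in Gas5 (chr1:162966173-162966202): aggttgaaaggacagTgccacaatgatgac
SNORD75 in Gas5 (chr1:162965964-162965993): gaacataatgaccacAaagcccatgatggt
SNORD77 in Gas5 (chr1:162967718-162967747): cccttccaaacaagcCgataccatgatgat
Snord47 in Gas5 (chr1:162968196-162968225): attgtaatatagcttGtaaccagtgatgtg
SNORD27 in Snhg1 (chr19:8799006-8799035): acatatttagatggcCacttaatgatgaac
SNORD28 in Snhg1 (chr19:8799342-8799371): tcttaaaaactcaacTgtcagatgatttga
Snora61 in Snhg12 (chr4:131866139-131866168): tggctaagacagcctGaccctccggtttcc
Snord99 in Snhg12 (chr4:131866592-131866621): gcatgagtacagacaCtggtccatgatgaa

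Whole snoRNAs are shown for 3 that the results below return to. Capitals mark the box C (NTGATGA within the first 20 bases), the box D (the last CTGA within the final 20 bases) and the ACA that closes an H/ACA snoRNA, each searched on the RNA strand only.
SNORD24 (chr1:162966188-162966270): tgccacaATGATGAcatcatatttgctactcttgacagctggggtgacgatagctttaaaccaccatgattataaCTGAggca
Snord22 (chr19:8800356-8800481): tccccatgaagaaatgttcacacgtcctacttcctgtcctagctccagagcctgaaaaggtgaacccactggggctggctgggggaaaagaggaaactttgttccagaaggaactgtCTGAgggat
Snora61 (chr4:131866155-131866284): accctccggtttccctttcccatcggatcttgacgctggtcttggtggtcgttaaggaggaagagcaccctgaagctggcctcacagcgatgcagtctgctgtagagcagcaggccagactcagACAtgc
Both boxes were found in 15 of the 25 snoRNAs of the host loci, against 17.7% of all 1552 annotated snoRNA genes, a set that also holds H/ACA genes. Snord22 held a box D but no NTGATGA in that window. An ACA at the given place was found in 5 of the 25 and in 18.2% of all annotated snoRNA genes. The 5 were Snora16a, Snora61, Snora73a, Snora73b and the C/D snoRNA SNORD79, and Snora44 had none there.

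Snhg1 and Gas5 carried the most RT stops, Snhg12 and Snhg3 fewer, and Snhg5 the fewest. Gas5, named for its accumulation in growth-arrested cells, had 17238 and 14535 RT stops in NT, 8598 and 11790 in DMS, and 16519 and 8292 in CMCT. Snhg1 had 15655 and 14268 in NT, 5806 and 9333 in DMS, and 33046 and 15682 in CMCT. The CMCT libraries of Snhg1 differed from each other by more than any other pair of the hosts in absolute counts, but the first is also the deepest library of the series.

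Snhg12 had 6056 and 7296 RT stops in NT, 3906 and 5589 in DMS, and 5456 and 2243 in CMCT. Snhg3 had 2284 and 2638 in NT, 1450 and 2366 in DMS, and 2994 and 1618 in CMCT. Snhg5 had the fewest, with 622 and 311 in NT, 664 and 492 in DMS, and 903 and 519 in CMCT.

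After scaling to depth by TMM, CPM values (depth-scaled RT stops) of Gas5 were 108 and 121 in NT, above both DMS values (44.2 and 62.9) and both CMCT values (65.3 and 54.5). Snhg1 lay at 98.0 and 119 in NT, above DMS (29.9 and 49.8), while CMCT (131 and 103) overlapped NT. Snhg12 was at 37.9 and 60.7 in NT, 20.1 and 29.8 in DMS, and 21.6 and 14.7 in CMCT, with NT above both. The scaled values of Snhg3 were 14.3 and 21.9 in NT, 7.46 and 12.6 in DMS, and 11.8 and 10.6 in CMCT. Those of Snhg5 were 3.89 and 2.59 in NT, 3.42 and 2.63 in DMS, and 3.57 and 3.41 in CMCT, and the 3 groups overlapped. The TMM factors were 0.881 and 0.737 in NT and 1.02 to 1.22 in DMS and CMCT. Scaled by depth alone, NT and DMS overlapped in Snhg12 (33.4 and 44.7 against 22.9 and 36.3). They also overlapped in Snhg3 (12.6 and 16.2 against 8.50 and 15.4). By that scale NT of Gas5 stayed above DMS and CMCT, and NT of Snhg1 lay above DMS and below CMCT.

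**Figure D1:**
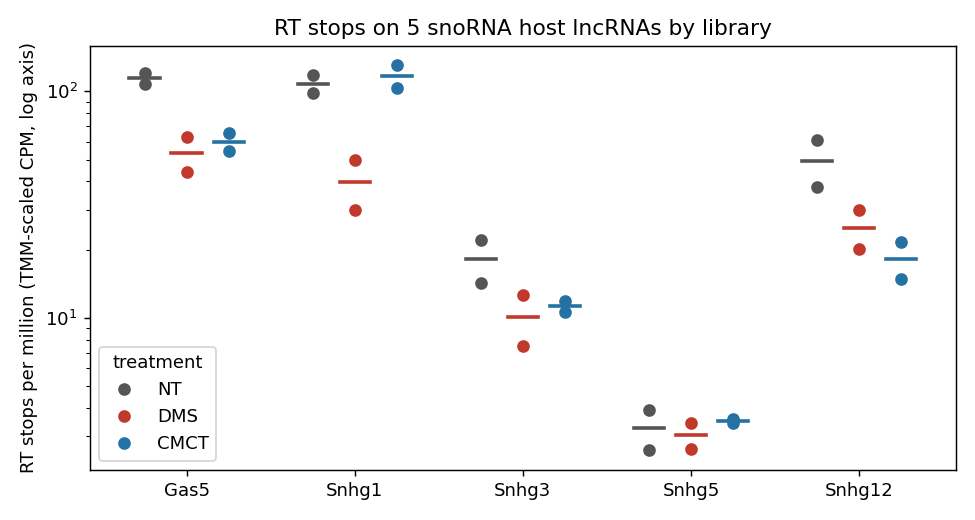
Points give the RT stops as TMM-scaled CPM (log axis) of each host in each of the 6 CIRS-seq libraries, and bars give the mean of the 2 replicates. Both NT points of Gas5, 108 and 121, lie above its DMS and CMCT points, while the points of Snhg5 lie between 2.59 and 3.89 in all groups.

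In the test over all genes with edgeR's quasi-likelihood method and Benjamini-Hochberg adjustment, 2 of the 5 hosts had fewer RT stops in DMS than in NT, where 12.5% of the 13216 genes tested were called lower. Gas5 fell by 1.09 on the log2 scale (SE 0.323, adjusted p = 0.0252) and Snhg1 fell by 1.44 (SE 0.355, adjusted p = 0.00978). Snhg12 (log2 change -0.98, adjusted p = 0.0572), Snhg3 (-0.85, adjusted p = 0.0598) and Snhg5 (-0.10, adjusted p = 0.809) did not pass 0.05. With DESeq2 Snhg12 (-0.997, adjusted p = 0.0241) and Snhg3 (-0.86, adjusted p = 0.0334) passed as well, and with edgeR both passed without DMS replicate 2, without CMCT replicate 1 and without CMCT replicate 2. Neither the Gas5 nor the Snhg1 call held with edgeR at positions found once in the genome (log2 change -1.17 for Gas5 and -1.37 for Snhg1, adjusted p = 0.0844 and 0.0868), without NT replicate 2 (-1.01 and -1.30, adjusted p = 0.112 and 0.0815) or without DMS replicate 1 (-0.87 and -1.13, adjusted p = 0.238 and 0.172). The Gas5 call was also lost without NT replicate 1 (-1.17, edgeR adjusted p = 0.0625) and without snoRNA positions (-0.49, edgeR adjusted p = 0.257).

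Between CMCT and NT, 2 hosts were again called lower by the same edgeR test, against 13.9% of all genes. Snhg12 fell by 1.44 on the log2 scale (SE 0.355, edgeR adjusted p = 0.0100) and Gas5 fell by 0.93 (SE 0.322, edgeR adjusted p = 0.0466). Snhg3 (-0.69, adjusted p = 0.116), Snhg1 (0.11, adjusted p = 0.843) and Snhg5 (0.11, adjusted p = 0.803) did not pass. Neither call held at positions found once in the genome, although the log2 changes were larger there (-1.09 for Gas5 and -1.62 for Snhg12, edgeR adjusted p = 0.124 and 0.0802). Nor did they hold without NT replicate 2 (-0.85 and -1.06, edgeR adjusted p = 0.196 and 0.136) or without CMCT replicate 2 (-0.81 and -1.19, edgeR adjusted p = 0.190 and 0.0675). The Gas5 call was also lost at about the same log2 change without NT replicate 1 (-1.01, edgeR adjusted p = 0.0845), without DMS replicate 1 (-0.93, 0.0998), without CMCT replicate 1 (-1.07, 0.0511) and with DESeq2's size factors (-1.04, 0.0559). Without snoRNA positions it was lost at a smaller change (-0.63, edgeR adjusted p = 0.153). Neither call held when the 6 bases before each snoRNA were left out as well (-0.20 for Gas5 and 0.09 for Snhg12, edgeR adjusted p = 0.648 and 0.821). The 2 comparisons share the NT libraries, and in bulk RNA fewer molecules and fewer stops per molecule cannot be told apart.

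Over the hosts together, most of the RT stops counted in these totals lay in or just before the snoRNAs inside the hosts. Host positions were divided into snoRNA 5′ ends (6 bases before to 6 bases into the annotated snoRNA), the rest of the snoRNA body, sequence that is an intron in some listed isoform, and exon of every isoform that spans it. This 5′ window was set after the positions of the stops had been seen. snoRNA 5′ ends made up 240 positions, or 2.37% of all host positions, and held 54.0% and 69.9% of the host RT stops in NT, 33.4% and 44.0% in DMS and 35.4% and 29.3% in CMCT. That is 208 stops per base in NT for both replicates together, against 8.50 in snoRNA bodies, 1.28 in introns of some isoforms and 2.88 in common exons. Single hosts differed from the sum. In Gas5 in DMS, snoRNA 5′ ends held 33.9% and 37.0% of the stops and bodies 9.10% and 8.01%. In Snhg3 in NT, snoRNA bodies held 42.3% and 32.3%, with no 5′ end inside its isoforms, and the Snhg5 isoform holds no snoRNA.

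Within annotated snoRNA sequence alone lay 43.2% ± 7.05 (SD, n = 2) of the host RT stops in NT, 35.4% ± 3.45 in DMS and 62.0% ± 0.0766 in CMCT. An exact two-sided permutation test over libraries gave p = 0.333 for DMS against NT and for CMCT against NT, which is the smallest p that 2 against 2 libraries allow. With the 6 bases before each snoRNA counted as well, the shares became 79.1% ± 1.92 in NT, 60.6% ± 2.43 in DMS and 80.7% ± 1.67 in CMCT, since many of the stops lay just before the annotated start.

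**Figure D2:**
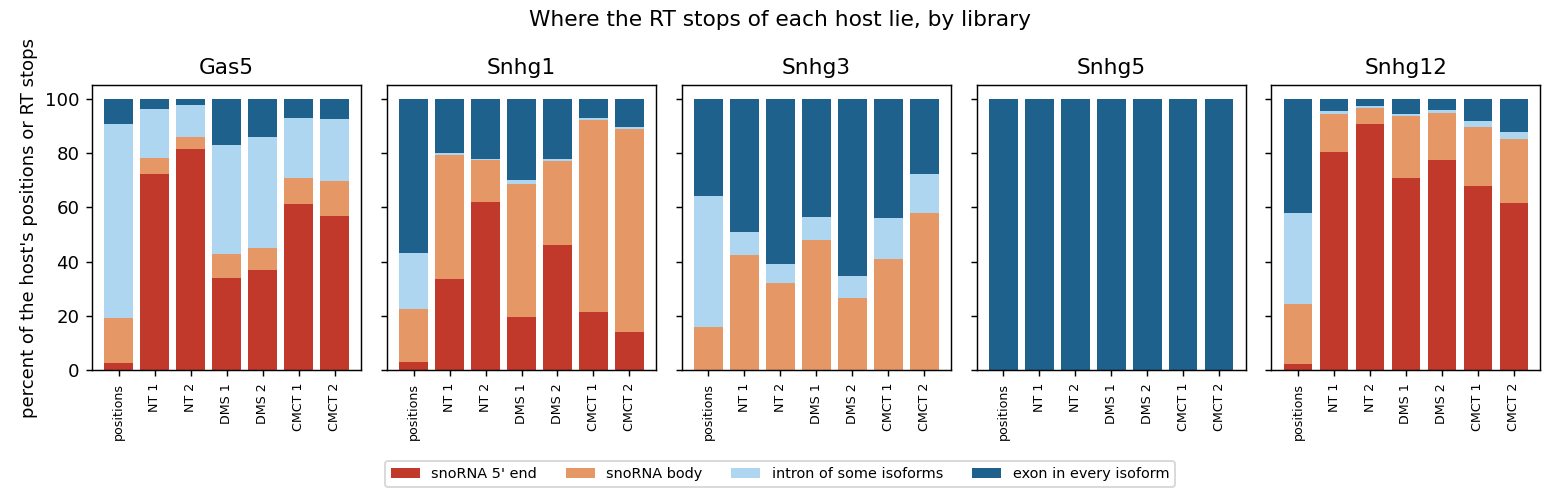
Stacked bars give, for each host, the percent of its positions (first bar) and of its RT stops in each of the 6 libraries that lie at snoRNA 5′ ends, in snoRNA bodies, in introns of some isoforms or in exons of every isoform. In Gas5 the snoRNA 5′ ends are 2.87% of positions and 81.4% of the stops of the second NT library, while Snhg5, whose listed isoform holds no snoRNA, is exon only.

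The 5′ ends of 20 snoRNAs lay inside a listed host isoform with the whole window. The strongest NT position was searched in this window only, so it could lie at most 5 bases after the annotated start. This top position of a snoRNA lay between 3 bases before and 5 bases after the start, and at 12 of the 20 before it. In Snord22 the position with most NT stops of both replicates together lay outside the window, 20 bases after the start. Summed over these snoRNAs, NT had 4445 and 7090 RT stops at the base directly before the start, 4647 and 5455 a base earlier and 4361 and 4016 at the start itself, but 2 and 3 stops at 10 bases before it. By the labels' protocol a read starts 1 base after the stop, and at the other 8 snoRNAs the strongest position lay at or after the start. In DMS the base directly before the start had 2097 and 5419 stops, and in CMCT it had 3703 and 1530.

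**Figure D3:**
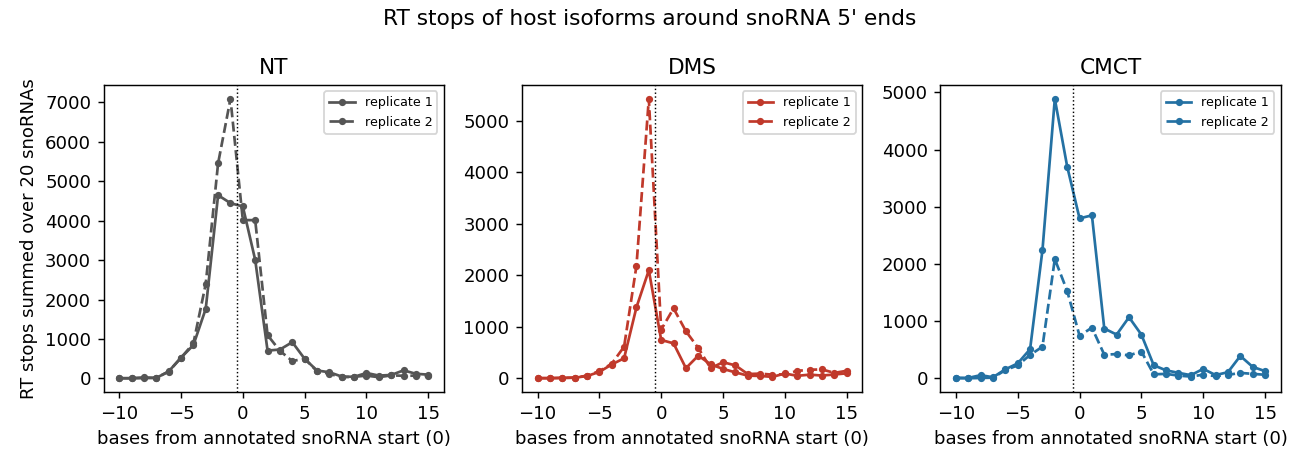
Lines give the RT stops summed over the 20 snoRNAs at each base from 10 before to 15 after the annotated start (0, dotted line just before it), for each replicate of NT, DMS and CMCT. The stops rise within a few bases of the start in every library, from 2 and 3 at 10 bases before it to 4445 and 7090 directly before it in NT.

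Gas5 had its strongest NT stop at the first base of SNORD24 (3487 and 1666 in NT, 495 and 403 in DMS, 1722 and 320 in CMCT), so the NT counts were above both DMS counts. At SNORD77 the top position, 1 base into the snoRNA, had 1775 and 2696 in NT, 277 and 655 in DMS, and 1259 and 252 in CMCT. SNORD75, 2 bases before its start, had 1770 and 1779 in NT, 266 and 371 in DMS, and 1999 and 999 in CMCT. These 3 ends were the highest of the locus. At the other end of the range, SNORD78 had only 7 and 20 NT stops at its top position, and SNORD79 had 75 and 76.

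In Snhg12 the strongest position was the base before Snora61, with 1641 and 2975 stops in NT, 1258 and 2012 in DMS, and 1073 and 345 in CMCT. Snora44 had 1110 and 1033, 364 and 779, and 473 and 253 at the base before it. The top position of Snord99, 1 base into the snoRNA, had 442 and 579 stops in NT, 188 and 371 in DMS, and 981 and 244 in CMCT. Of the stops from 6 bases before Snora44 to its end, 86.4% lay in the 5′ window in NT, and in DMS and CMCT the share was 76.6% and 77.4%.

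At several Snhg1 snoRNAs the replicates of a group lay several-fold apart. At the strongest NT position in the 5′ window of SNORD25 the CMCT libraries had 223 and 7 stops, and at that of Snord22 they had 1295 and 161. At the stronger Snord22 position beyond this window they had 11272 and 5448. SNORD27 had 416 and 1794 NT stops at its first base, 74 and 265 in DMS, and 610 and 166 in CMCT. SNORD28 had 217 and 940 in NT, 81 and 1657 in DMS, and 528 and 26 in CMCT at the base before it, so that the libraries of a group differed by more than the groups did. SNORD31 was the least counted, with 39 and 77 NT stops at its top position.

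Over the 20 snoRNAs, the share of the stops of a snoRNA that lay in the 5′ window had a median of 93.4% in NT, 78.2% in DMS and 86.1% in CMCT, and it was highest in NT at 17 of the 20. SNORD74 (76.8% in NT), SNORD78 (75.9%) and Snord22 (41.0%) were lowest in NT.

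In NT the first bases of these snoRNAs had fewer stops in the snoRNA's own transcript entry than in the host entry. Over 19 snoRNAs with both, the first 3 bases held 17175 NT stops in host isoforms and 4148 in the snoRNA entries, and the host count was the higher at all 19. For SNORD24 the counts were 4174 and 2110 in the host against 1203 and 1204 in its own entry. In DMS and CMCT the entries were close for SNORD24, with 668 and 602 in the host against 652 and 586 in DMS, and 2008 and 406 against 1987 and 385 in CMCT. They were not close at SNORD79, with 40 and 40 against 15 and 16 in DMS, and 379 and 379 against 169 and 168 in CMCT. At SNORD26 the first CMCT library had 17 in the host and 18 in its own entry.

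Snord22, in the Snhg1 locus, was the exception to the 5′ end pattern. It was the most counted of the 24 listed snoRNAs, with 7350 and 1983 RT stops in NT, 2723 and 2530 in DMS, and 22944 and 11199 in CMCT in its own entry, and a total of 48729 against a median of 1002. SNORD31 was the least counted with 138. The Snhg1 position with most NT stops was a C that lies 20 bases after the first base of Snord22, with 2927 and 725 stops in NT, 707 and 382 in DMS, and 11272 and 5448 in CMCT. Both CMCT counts were above those of all other libraries. Relative to the whole isoform, and with both replicates together, the log2 ratio to NT was 1.53 in CMCT and -0.84 in DMS. Through Snord22, snoRNA bodies held 70.6% and 74.8% of the Snhg1 stops in CMCT, against 45.6% and 15.6% in NT.

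Snora73a and Snora73b, H/ACA snoRNAs known as U17 that take part in processing of ribosomal RNA, are identical at 198 of 205 bases, so that their counts may be split or shared between the copies. Snora73a had 1814 and 1492 NT stops, 994 and 923 in DMS, and 1893 and 1390 in CMCT in its own entry. Snora73b had 1917 and 1468, 898 and 917, and 1925 and 1337. No Snhg3 isoform listed holds Snora73b, and 159 bases of Snora73a lie in one.

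**Figure D4:**
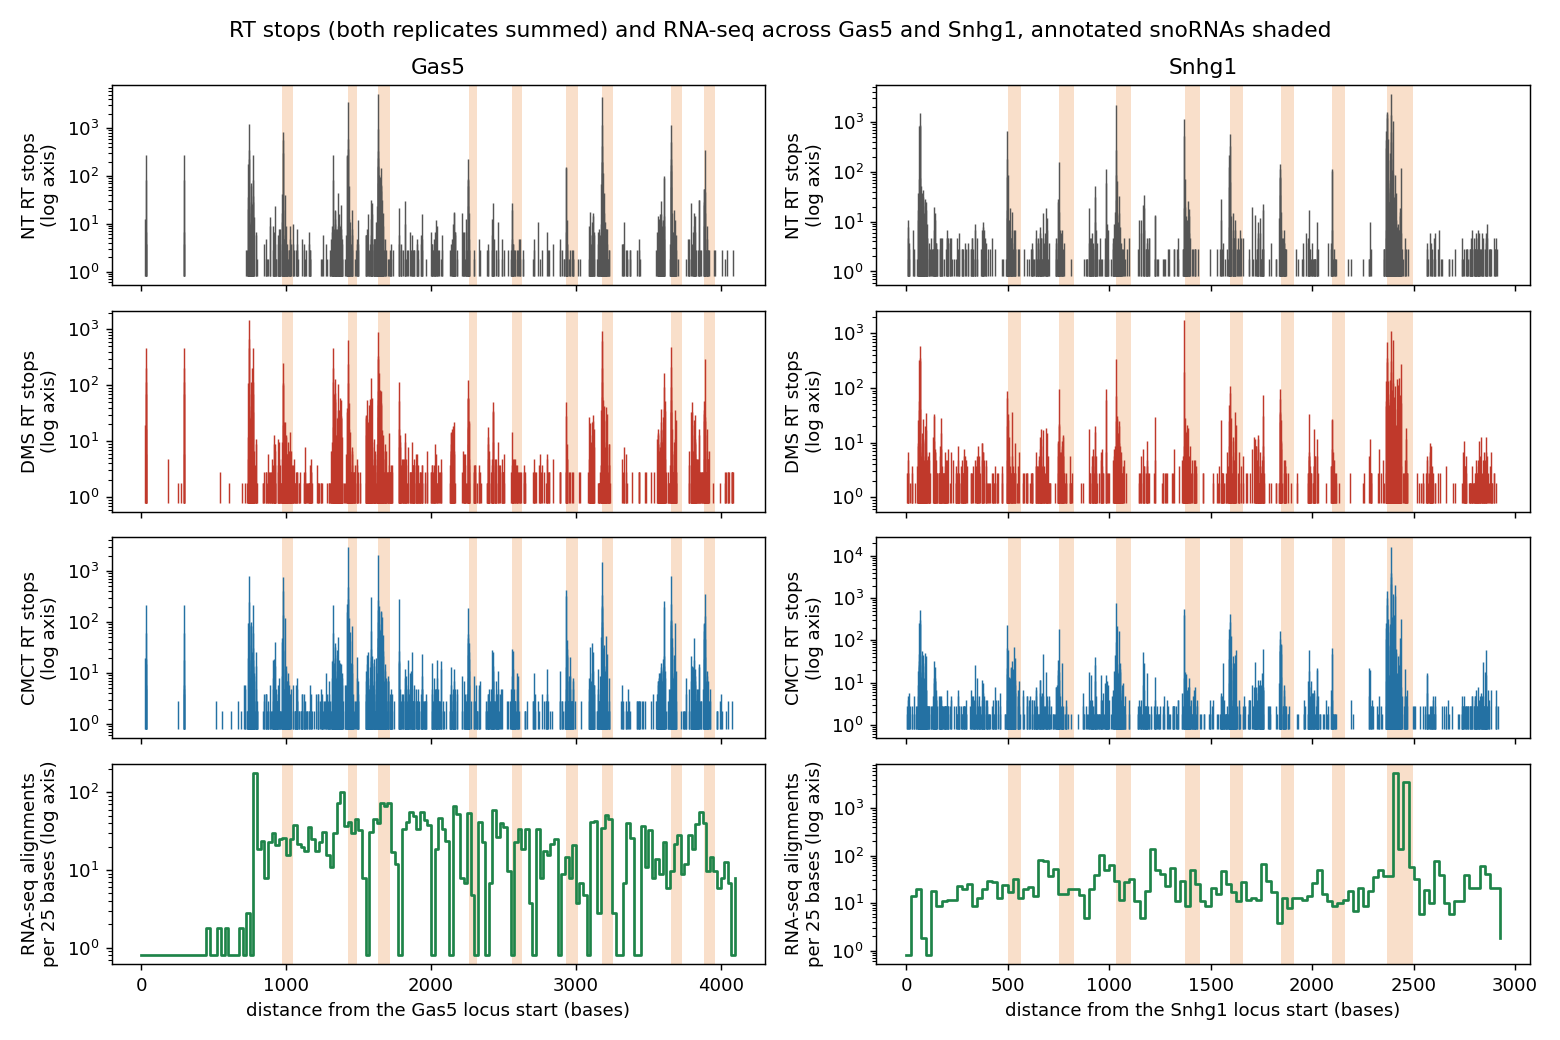
RT stops of both replicates together in NT, DMS and CMCT (log axes) and RNA-seq alignments per 25 bases (log axis) are plotted by distance from the start of the Gas5 and Snhg1 loci, with annotated snoRNAs shaded. In Gas5 the tallest NT lines stand at the left edges of shaded snoRNAs, as at SNORD24 (3487 and 1666), in Snhg1 the tallest stands inside Snord22 (2927 and 725), and there the RNA-seq line is highest over Snord22, with 9381 alignments.

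The isoforms of a host differed widely in RT stops per base. The 16 Gas5 isoforms that hold a whole snoRNA ranged from 1.07 to 11.7 NT stops per base (both replicates together, median 2.76), and the 9 without from 1.36 to 6.09 (median 2.11), so that they overlapped. In DMS the order of the medians was the opposite, 3.87 with a whole snoRNA (highest 9.95) and 6.58 without (highest 13.3), and in CMCT they were 4.83 and 4.12. The isoforms share exons and therefore reads, and they are not replicates. In Snhg12 the 3 isoforms with a whole snoRNA had 2.62, 4.84 and 12.3 NT stops per base, and the 2 without had 0.567 and 0.621. Both Snhg1 isoforms hold snoRNAs and had 10.7 and 12.4. The single Snhg5 isoform, fully spliced over 5 exons and 993 bases, had 0.940 in NT, 1.16 in DMS and 1.43 in CMCT.

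Away from the snoRNAs, the strongest NT stop of Gas5 lay at the start of listed isoforms and that of Snhg3 near the 5′ end of its isoform. These positions, chosen after the counts had been seen, are shown with the stop in capitals.
Gas5 (chr1:162965280-162965309): tcagccgccatctcaGcctttcggagctgt
Snhg3 (chr4:131909536-131909565): cgtcggcgcgggtctGtctctctaggcgtc
At the Gas5 position NT had 645 and 562 stops, DMS 382 and 1069, and CMCT 588 and 207, and 3 listed isoforms start within 1 base of it. 6 pyrimidines follow it directly. At the Snhg3 position, base 52 of its isoform, where no listed isoform starts within 1 base, NT had 240 and 569 stops, DMS 106 and 315, and CMCT 192 and 44, with 7 pyrimidines following. A run of at least 6 pyrimidines follows 2.91% of the 8227 host positions outside snoRNAs, and nothing is read from this share, since these positions were chosen after their runs were seen. No pyrimidine follows the strongest such positions of Snhg5 and Snhg12, and that of Snhg12 had only 3 and 24 stops in NT. The Snhg3 locus overlaps Rcc1 on the same strand, and its counts cannot be told apart from those of Rcc1 where exons are shared.

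In Snhg1 the strongest NT position outside snoRNAs lay at base 69 of the longest isoform, in a run of pyrimidines whose next 25 bases occur more than once in the genome. It had 757 and 760 stops in NT, 290 and 293 in DMS, and 259 and 258 in CMCT, so that replicates differed by at most 3. In Snhg5 the top position (base 159, a U) had 16 and 13 stops in NT, and no position of this host reached 50 in NT. Near-equal replicate counts occurred at other host positions and in whole snoRNAs despite unequal depth. SNORD81 had 273 and 274 stops within the host in NT, 265 and 267 in DMS, and 410 in both CMCT libraries. Among positions with at least 50 stops in both replicates together, the replicates differed by at most 1 at 21 of 152 in NT, 15 of 156 in DMS and 29 of 177 in CMCT, against 21.6%, 24.5% and 23.5% over all genes. That tolerance of 1 leaves out the Snhg1 NT pair of 757 and 760. The origin of the near-equal counts was not tested, and SDs and p-values take the replicates as independent.

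On the representative isoforms (the longest of each host) the summed hosts, in which Gas5 and Snhg1 have most stops, showed no gain in the share of the bases that each reagent modifies. A and C took 55.9% and 57.5% of the stops in NT, and 56.3% in both DMS libraries, a difference of -0.40 percentage points (exact two-sided permutation test over 2 against 2 libraries, p = 1). U and G took 44.1% and 42.5% in NT and 37.4% and 35.4% in CMCT, a difference of -6.92 points (exact permutation p = 0.333, the smallest possible). Single hosts differed from this sum. A and C took 44.4% and 41.2% in NT and 62.7% and 72.8% in DMS in Snhg5, and 45.7% and 44.4% against 51.0% and 62.3% in Snhg3. U and G took 54.3% and 55.6% in NT and 67.3% and 67.4% in CMCT in Snhg3, and 16.5% and 17.7% against 24.4% and 28.99% in Snhg12. A and C in Gas5 took 46.1% and 58.1% in NT and 51.4% and 65.8% in DMS, so that the groups overlapped, and U and G in Snhg5 took 55.6% and 58.8% in NT and 60.5% and 60.1% in CMCT. The remaining shares were lower with the reagent in the means of the replicates. A and C took 83.5% and 82.3% in NT and 77.3% and 63.3% in DMS in Snhg12. U and G took 53.9% and 41.9% in NT and 45.1% and 37.1% in CMCT in Gas5, where the groups overlapped. In Snhg1 this held for both shares. Both differences of the summed hosts turned when each position was counted at most 50 times, to 10.4 points for A and C in DMS and 7.57 points for U and G in CMCT.

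Outside snoRNAs and their 5′ ends the reagents' bases, taken as pairs, did gain share in both replicates on the representative isoforms. On the same isoforms A and C took 45.2% and 46.8% in NT and 50.2% and 61.0% in DMS, and U and G took 54.8% and 53.2% in NT and 63.4% and 62.2% in CMCT. Each difference (9.57 and 8.84 points) had the smallest possible exact permutation p, 0.333. The gain in DMS was at A, from 8.32% and 9.86% in NT to 19.3% and 33.0%, and that in CMCT was at U, from 39.0% and 33.8% to 50.5% and 49.2%. C fell from 36.9% in both NT libraries to 30.9% and 27.9% in DMS, and G from 15.8% and 19.4% to 13.0% in both CMCT libraries. Over all isoforms A and C took 45.9% and 39.9% in NT and 54.6% and 57.6% in DMS. There U and G took 54.1% and 60.1% in NT and 64.7% and 59.9% in CMCT, so that these groups overlapped. Over all genes, at positions found once, A took 14.1% and 15.4% in NT and 32.6% and 40.6% in DMS, and U took 38.0% and 41.9% in NT and 45.6% and 48.9% in CMCT.

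At snoRNA 5′ ends over all isoforms, A and C took 45.4% and 48.9% in NT, 39.5% and 34.3% in DMS and 53.2% and 57.1% in CMCT, so that neither reagent moved towards its own bases there. In all snoRNA bodies A took 12.8% and 21.1% in NT and 23.6% and 42.0% in DMS, while U took 27.02% and 25.8% in NT and 26.2% and 25.4% in CMCT, with no gain at U. In snoRNA bodies without Snord22, A took 20.5% and 25.3% in NT and 29.8% and 44.8% in DMS. U took 28.4% and 30.97% in NT and 43.8% in both CMCT libraries.

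**Figure D5:**
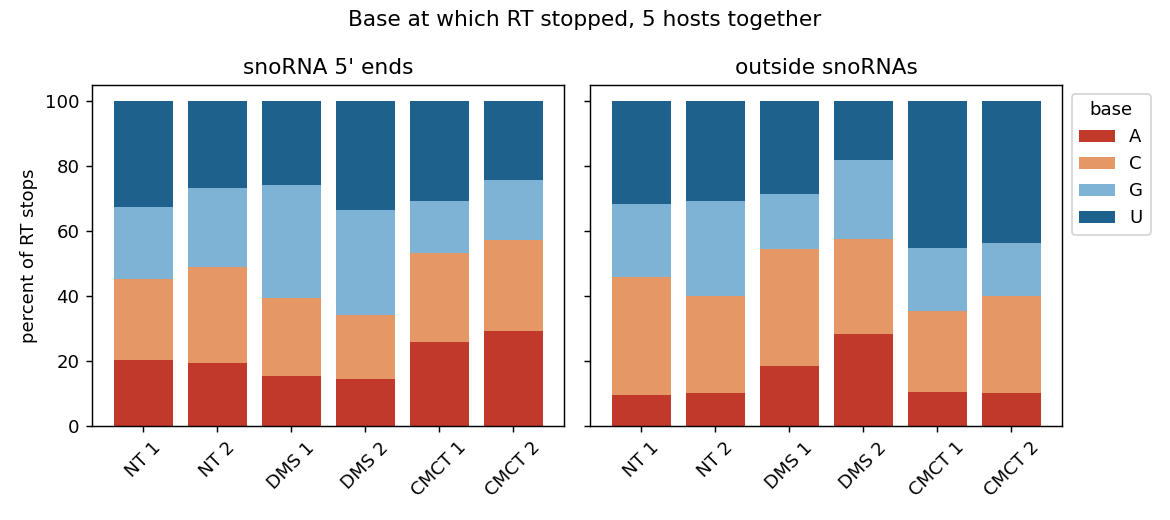
Stacked bars give the percent of the RT stops of the 5 hosts at A, C, G and U in each library, at snoRNA 5′ ends (left) and outside snoRNAs (right), over all positions of all isoforms. Outside snoRNAs A takes 9.67% and 10.1% in NT and 18.4% and 28.4% in DMS, and U takes 31.8% and 30.8% in NT and 45.2% and 43.6% in CMCT.

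The positions with the largest ratio of reagent over NT, among those with at least 20 stops of the reagent in each replicate, were often inside snoRNAs. They were picked for these ratios, which are therefore a description. In Snhg1 the top DMS position was an A, 48 bases after the first base of Snord22, with 1 and 0 stops in NT and 36 and 109 in DMS. Its top CMCT position was a U, 27 bases after the first base of SNORD29, with no stop in NT and 30 in each CMCT library.

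In Snhg3 both lay in Snora73a. The A that lies 98 bases after its first base had 13 and 14 stops in NT and 88 and 90 in DMS, and the G at 107 bases had 13 and 9 in NT and 94 and 76 in CMCT. In Snhg12 the top CMCT position was a U, 22 bases after the first base of Snord99, with 9 and 9 stops in NT and 58 and 55 in CMCT. Its top DMS position, a U at 2 bases after that first base, was uneven between replicates, with 69 and 123 in NT and 22 and 255 in DMS.

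In Gas5 the top CMCT position was a U, 5 bases after the first base of SNORD79, with 1 stop in each NT library and 21 and 22 in CMCT. The top DMS position of Gas5 lay in an exon common to all isoforms spanning it and was a G, with 1 and 0 in NT and 21 and 51 in DMS. Snhg5 had no position with enough DMS stops, and 1 with enough CMCT stops, a U with 7 and 10 stops in NT and 42 and 25 in CMCT. Few positions could be compared at all, 28 of 2556 in Gas5 and 34 of 2719 in Snhg1 for DMS, and 35 and 58 for CMCT.

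The direction of the Gas5 change in DMS turned when snoRNAs and the 6 bases before them were left out, a count added after the data had been seen. Gas5 then had 685 and 341 stops in common exons in NT and 1473 and 1676 in DMS, and its edgeR log2 change over all remaining positions was 0.55 (SE 0.293, adjusted p = 0.185). Those positions include several with nearly the same counts in every library (244 and 24 in NT at each), so the same stops may be counted there more than once. In DMS Snhg1 fell by 1.18 (SE 0.262, edgeR adjusted p = 0.00528). In CMCT Snhg1 then fell by 1.11 (SE 0.261, edgeR adjusted p = 0.00784), and Snhg12 was at 0.09 (edgeR adjusted p = 0.821) in place of its drop. Gas5 in CMCT was then at -0.20 (edgeR adjusted p = 0.648), and its call was lost. The Snhg1 count that remains includes the run of pyrimidines described above.

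In RNA-seq over the same loci, Snord22, Snora73a and Snora73b stood far above the other snoRNAs. The library has 31857551 alignments of 50 bases, none spliced, without strand, in 1 library, so no spread can be given. Gas5 had 827 alignments per kb in common exons, 810 in introns of some isoforms and 1147 in snoRNAs with the 6 bases before them. Snhg1 had 1070, 814 and 14738, and Snhg12 358, 400 and 1327. Introns of every isoform had 2.79 alignments per kb in Gas5, 152 in Snhg3 and 270 in Snhg12, and Snhg1 has no such positions. The Gas5 value is 1 alignment over 358 positions. Exon sequence at the start of the Gas5 locus was as empty, with 0 alignments in the window that begins 25 bases into it. The window at 725 bases had 2 alignments and that at 775 bases had 177. Whether the low Gas5 value reflects removal of introns was not tested.

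Snhg5 had 667 in exons, 538 in its snoRNAs and 589 in introns of every isoform, and Snhg3 had 558 in common exons, 517 in introns of some isoforms and 49289 in snoRNAs. The high values came from few genes: Snord22 had 9381 alignments with their midpoint in it, Snora73a 9824 and Snora73b 10966, and the other 22 snoRNAs had 16 to 241. SNORD24, whose 5′ end had the strongest NT stop of Gas5, had 241.

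Genes that make up, assemble or also host snoRNAs were read from fixed lists. None of the 9 tested snoRNP core proteins passed edgeR's test in DMS (2 at an unadjusted p under 0.05, 4 with DESeq2), and in CMCT 1 was higher, Nop58 (log2 change 0.84, SE 0.242, edgeR adjusted p = 0.0215), a scaffold of box C/D particles. The edgeR background over all genes is 26.4% called in DMS and 29% in CMCT, and DESeq2 called 5595 of 13218 genes in DMS. At an unadjusted edgeR p under 0.05 it is 5376 of 13216 genes in DMS and 5187 in CMCT. Of 7 assembly factors none passed in DMS with edgeR (0 unadjusted, 1 with DESeq2) and 2 were higher in CMCT, led by Nolc1, a chaperone of snoRNPs (0.76, SE 0.238, edgeR adjusted p = 0.0315). Of 25 protein-coding snoRNA hosts none passed in DMS with edgeR (4 unadjusted, 7 with DESeq2) and 1, nucleolin (Ncl), was higher in CMCT (1.20, SE 0.314, edgeR adjusted p = 0.0137).

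Of the other snoRNA host lncRNAs 4 were tested and 2 were lower in each comparison with edgeR, where 12.5% of all genes were called lower in DMS and 13.9% in CMCT. With DESeq2 3 of the 4 differed in each, where it called 5595 of 13218 genes in DMS and 4931 in CMCT. The largest drop was that of Rian, an imprinted host of many snoRNAs, with 17810 and 15072 stops in NT, 8862 and 8453 in DMS and 12046 and 7336 in CMCT. Its log2 change was -1.39 in DMS and -1.31 in CMCT (edgeR adjusted p = 0.00475 and 0.00709). The list had a median of -1.05 in DMS and -0.70 in CMCT, beside medians over all genes of 0.0072 and 0.11. Among nonsense-mediated decay factors, Upf3a was higher in CMCT (log2 change 0.96, SE 0.280, edgeR adjusted p = 0.0230), with 282 and 148 stops in NT and 686 and 475 in CMCT.

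Among the markers, Utf1 was the only one of 9 ESC genes called in DMS (-0.89, edgeR adjusted p = 0.0168), and none passed in CMCT with edgeR (0 unadjusted, 0 with DESeq2). The 1 fibroblast marker tested, Col1a1, was lower in both (-2.07 and -2.17, edgeR adjusted p = 0.00178 and 0.00153). It had 35208 and 35121 stops in NT but 8 alignments in RNA-seq, and the part of fibroblast RNA in the results was not tested. Neither of 2 germ layer genes passed with edgeR (0 unadjusted and 0 with DESeq2 in both comparisons).

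The 3 genes whose log2 CPM over the 6 libraries was most like that of the summed hosts, among 7162 genes with a mean CPM of at least 10, were mt-Tq (Pearson r = 0.979), the mitochondrial glutamine tRNA, 9430037G07Rik (0.959) and a U1 spliceosomal RNA (0.952). mt-Tq had 4108 and 4038 stops in NT, 1171 and 1588 in DMS, and 4432 and 1729 in CMCT. The 6 libraries fall into only 3 treatment groups, and the likeness is a description.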

How the data were processed

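E14 mouse ESCs were studied with CIRS-seq in 6 libraries (NT, DMS and CMCT, 2 replicates each) and RNA-seq in 1. The authors deposited counts of RT stops per transcript position, without normalization, and for RNA-seq the single alignments. The submitters' processing notes name Bowtie 1.0.0, TopHat2 2.0.6, FastQC 0.10.1 and bedtools 2.17.0, with build mm9; which of them made which file is not given in the sources used here. Combined files of each treatment (3) were not used.

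Transcripts were matched to GENCODE vM1 (26792 of 26827). A position shared by isoforms of a gene entered its total only 1 time, at the highest of their values. The same stops may still enter a total at several positions. In Gas5 the positions 33, 295, 770 and 1327 bases from the locus start had nearly the same counts in every library. Each had 244 and 24 stops in NT. The first lies in a common exon and the others in introns of some isoforms, and the origin of these repeats was not tested. The test of gene totals was edgeR's quasi-likelihood test (edgeR 4.0.16, R 4.3.3, TMM, filterByExpr, Benjamini-Hochberg 0.05) in 1 fit over 6 libraries, with DESeq2 1.42.0 as an alternative; the script was tested on simulated counts. Library totals were 140186204 to 247369982 with each position once. The study calls the 2 libraries of a group biological replicates, and no source used here says whether they came from separate cultures, so p-values measure the spread between these libraries. Alternatives were DESeq2, its size factors, no low-count filter, positions found once, host totals without snoRNA sequence, each library left out and a replicate block. The hosts and gene lists were chosen with earlier results of these data known. The representative isoform of a host was the longest not annotated as a retained intron, or the longest of all. Positions were named by rule: per host the position with most NT stops and that with the largest ratio of each reagent over NT, with a pseudocount of 1 and at least 20 stops in each replicate of the reagent; per list the largest rise and drop past 0.05. A part of the results for the list of nonsense-mediated decay factors is not reported here.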

Additional observations from a re-analysis of the deposited data

How the results depend on the processing

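The number of hosts that differed depended on the processing. For DMS against NT it was 2 of 5 with edgeR, 4 with DESeq2's Wald test (Snhg12 and Snhg3 gained), 0 at positions found once in the genome 1 without snoRNAs and the 6 bases before them, and 2 without snoRNA positions, where Gas5 was lost (-0.49, adjusted p = 0.257) and Snhg12 gained (-1.19, adjusted p = 0.0219), and it ranged from 0 to 4 when a replicate was left out. For CMCT against NT it was 2, and 1 with DESeq2's size factors, 0 at positions found once, 1 without snoRNA positions and 1 without snoRNAs and the 6 bases before them, and 0 to 3 when a replicate was left out. Over all genes, DESeq2 called 5595 in DMS in place of 3485, and positions found once gave 1068 and 638 in place of 3485 and 3827, of which 70.8% and 78.5% were higher in place of 52.5% and 51.8%. At positions found once, 3 hosts in DMS and 2 in CMCT had an unadjusted edgeR p under 0.05. Of the 11479 genes tested there, 3490 in DMS and 3134 in CMCT did so. Leaving out a replicate gave 1719 to 4619 genes in DMS and 1600 to 4402 in CMCT. Leaving out NT replicate 2 or DMS replicate 1 gave 0 hosts in DMS, and leaving out NT replicate 2 or CMCT replicate 2 gave 0 in CMCT.

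With the replicate number as a block, 4 hosts differed in DMS and 3 in CMCT, and 5616 genes were called in DMS. The sources used here link same-numbered libraries by their number only, and whether they share a batch was not tested. Their deviations correlated at 0.55 for NT with DMS, 0.017 for NT with CMCT and -0.10 for DMS with CMCT. A call gained under this block says nothing of the pairing.

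Directions turned for Gas5 in DMS (0.55) and for Snhg1 (-1.11) and Snhg12 (0.092) in CMCT without snoRNAs and the 6 bases before them, and for Snhg1 in CMCT without snoRNA positions (-1.23). Snhg5 turned in CMCT at positions found once (-0.021). When a replicate was left out, Snhg5 ranged from -0.37 to 0.22 in DMS and from -0.16 to 0.43 in CMCT, and Snhg1 from -0.071 to 0.27 in CMCT. Of 130 alternatives for the 10 host fold changes, 86 kept direction and side of the threshold.

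The difference in A and C (DMS minus NT) was -0.40 points, and 10.4 with at most 50 stops per position, 1.13 over all isoforms, 9.57 outside snoRNAs and -1.18 to 0.38 when a replicate was left out. The difference in U and G (CMCT minus NT) was -6.92 points, and 7.57 with at most 50 stops per position, 8.84 outside snoRNAs and -8.63 over all isoforms. The share of stops within snoRNAs in CMCT moved from 62.0% to 64.0% at positions found once and to 43.5% with at most 50 stops per position, and with the 6 bases before each snoRNA the NT, DMS and CMCT shares became 79.1%, 60.6% and 80.7%. RNA-seq alignments per kb of exon rose from 7660 to 10502 for Snhg3 and from 667 to 832 for Snhg5 when any overlap was counted. The alternatives that leave out snoRNA ends were chosen after seeing the data, and the causes of these changes were not tested. With 2 libraries per group no permutation test could pass 0.05, and few host positions outside snoRNAs were deep enough to compare.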
